A study of Mus musculus with 23 samples.

Results

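A set of 10 genes that mark the vessels of lymph nodes and the lymphatic vasculature was followed through 23 RNA sequencing libraries of ultraviolet-induced mouse melanoma. They are 10 of the 37620 genes counted, taken as a list by gene symbol: Glycam1, Chst4, Madcam1 and Fut7 of high endothelial venules, and Lyve1, Prox1, Flt4, Pdpn, Stab2 and Ackr4 of lymphatic vessels and node sinuses. Node metastases (7 libraries) and lung metastases (2 libraries) carried 1 mutant copy each of Nme1 and Nme2 (Nme1+/- / Nme2+/-), as did the HPN primaries (7 libraries), whereas the HP primaries (7 libraries) were Nme1wt / Nme2wt. The labels do not spell out HP and HPN, and give neither age, sex nor the means of tumour induction beyond the title. Nodes 3, 4 and 8 were brachial, 6 and 7a cervical, 7b inguinal, and node 5 had no named site.

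High endothelial venules are the vessels through which lymphocytes leave the blood and enter a lymph node. Their cells display sulphated and fucosylated sugars on mucin-like proteins, which lymphocytes bind. Lymphatic vessels bring lymph, and often tumour cells, into the sinuses of the node, and their endothelium is set apart by the transcription factor Prox1, the growth factor receptor Flt4 and receptors for hyaluronan.

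Reads assigned to genes came to between 18.9 and 89.5 times 1e6 per library. Levels are counts per 1e6 counts (CPM), scaled over all 23 libraries, and node libraries 7a and 7b, which share a title number, were summed to give 6 node samples for means and tests. The labels do not say which samples are separate animals, and the p-values rest on the spread among samples, which may be technical in part. Nme1 averaged 10.6 ± 2.78 CPM in HPN primaries and 16.8 ± 8.06 CPM in HP primaries, and Nme2 averaged 0.238 ± 0.127 CPM in HPN primaries and 0.480 ± 0.201 CPM in HP primaries (SD, n = 7 each), with overlapping ranges. The Nme2 values rest on 2 to 21 reads per HPN primary and 11 to 41 per HP primary, too few to read its level or the genotype from. Library lung 4 held genes of lung and heart muscle. Its 8 alveolar marker genes summed to 7260 CPM, against 10.9 CPM in lung 3, and its 6 cardiac genes to 754 CPM, against 0.707 CPM in lung 3.

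Promoter windows of 9 of the 10 genes were found in RefSeq for build GRCm38.p6, each running from 250 bases before to 50 bases after a start of transcription. The 4 below belong to the 3 venule genes with the largest differences by site and to Stab2, the lymphatic gene with the largest. Capitals mark every match, on either strand, to GGGNNNNNCC (a kappa B-like pattern), TNAAGTG (NKX2-like) or AGGAAG (ETS-like).
Glycam1 promoter: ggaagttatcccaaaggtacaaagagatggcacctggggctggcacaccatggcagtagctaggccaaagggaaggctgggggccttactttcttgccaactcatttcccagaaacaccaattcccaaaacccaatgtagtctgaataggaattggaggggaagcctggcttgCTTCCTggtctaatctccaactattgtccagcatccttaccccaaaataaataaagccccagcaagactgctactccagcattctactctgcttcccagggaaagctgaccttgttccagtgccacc
Chst4 promoter: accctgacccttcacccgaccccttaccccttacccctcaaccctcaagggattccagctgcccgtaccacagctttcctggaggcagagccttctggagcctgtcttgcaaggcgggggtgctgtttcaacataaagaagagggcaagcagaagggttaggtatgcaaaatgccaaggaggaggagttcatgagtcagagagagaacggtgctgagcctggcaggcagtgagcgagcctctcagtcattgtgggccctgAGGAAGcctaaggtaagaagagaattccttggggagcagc
Madcam1 promoter: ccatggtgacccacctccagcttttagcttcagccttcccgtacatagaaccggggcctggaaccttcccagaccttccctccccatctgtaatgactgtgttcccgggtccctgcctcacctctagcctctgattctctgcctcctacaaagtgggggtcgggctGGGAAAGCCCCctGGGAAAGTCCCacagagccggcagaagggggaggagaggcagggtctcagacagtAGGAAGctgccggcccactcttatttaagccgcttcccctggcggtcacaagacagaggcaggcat
Stab2 promoter: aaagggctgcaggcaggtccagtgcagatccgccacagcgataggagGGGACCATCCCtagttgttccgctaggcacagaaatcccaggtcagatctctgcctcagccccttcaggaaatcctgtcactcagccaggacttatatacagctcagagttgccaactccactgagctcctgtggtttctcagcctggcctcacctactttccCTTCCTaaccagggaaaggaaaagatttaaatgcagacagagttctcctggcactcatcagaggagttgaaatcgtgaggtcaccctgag
The Glycam1 window lies at chr15:103565032-103565331 on the minus strand, Chst4 at chr8:110039285-110039584 on the minus strand, Madcam1 at chr10:79664309-79664608 on the plus strand and Stab2 at chr10:87007893-87008192 on the minus strand. Madcam1 had kappa B-like letters in 2 neighbouring stretches, bases 167 to 177 and 180 to 190 of the window, in which matches on both strands overlap. Stab2 had 1 such stretch, at bases 48 to 58, and Glycam1 and Chst4 had none. All 4 held 1 ETS-like match and none an NKX2-like one. Of 32851 windows of the same length in the table, 50.8% held the kappa B-like pattern, 35.4% the ETS-like and 11.5% the NKX2-like. A match describes the letters and nothing more.

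All 4 venule genes rose in node metastases relative to HPN primaries, and so did 2 of the 6 lymphatic genes, Prox1 and Stab2. With the title number as a block, which pairs same-numbered samples, 2 of the 10 genes were called, Glycam1 and Stab2. The comparison addresses how tumours at the nodal site differ from primaries of the same genotype. With edgeR's quasi-likelihood test and Benjamini-Hochberg adjustment at 0.05, 6 of the 10 genes rose and 0 fell, where 22.5% of the 19152 genes tested were called in either direction, 12.7% rose and 9.81% fell. The venule genes had at most 21 reads in any HPN primary and passed the filter on low counts through the metastases. They could hardly have fallen, so the direction of these 4 cannot be weighed against the shares over all genes. The files count reads of low alignment quality in nodes 7a, 7b and 8, in HPN primary 7 and in 4 of the HP primaries. Among libraries without such reads 3 of the 10 genes rose, Glycam1, Chst4 and Stab2, and with the libraries that hold such reads as a batch term 5 rose, all but Madcam1 of the 6. The batch with such reads holds 1 HPN primary, too few for a fit of its own. The median log2 difference was 2.24 over the 10 genes and -0.08 over all genes tested. The 4 venule genes enter the first median, so it cannot be weighed against the second either. The lymphatic genes alone had log2 differences of 1.26 (Lyve1), 1.13 (Prox1), 0.43 (Flt4), -1.23 (Pdpn), 4.99 (Stab2) and 0.44 (Ackr4).

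Glycam1, a secreted mucin-like protein that carries these sugars, had 4.26, 2.25, 138, 80.9, 26.6, 20.3 and 10.6 CPM in nodes 3, 4, 5, 6, 7a, 7b and 8. HPN primaries 1 to 7 had 0, 0, 0.0923, 0.174, 0.213, 0.210 and 0.177 CPM, from 0 to 11 reads each. Node 5 was the highest and node 4 the lowest of the nodes, and even node 4, with 77 reads, stood above every primary. Glycam1 averaged 43.2 ± 54.9 CPM in nodes (SD, n = 6) and 0.124 ± 0.0935 CPM in HPN primaries (n = 7), a log2 difference of 8.33 (SE 1.13; edgeR adjusted p = 0.000293). Only 2 of the 10 genes, Glycam1 and Stab2, had node values all above those of the HPN primaries, as did 5.16% of the genes tested. Glycam1 is also made by the milk-producing mammary gland, and 6 mammary genes summed to between 4.31 and 8.23 CPM in nodes, against 3.17 to 18.1 CPM in HPN primaries. One of the 6, Trf, alone averaged 5.46 CPM in nodes and 9.46 CPM in HPN primaries, so the sums say little about the others. Of the 6, the milk casein Csn2 had 3, 16, 4 and 1 reads in nodes 5, 7a, 7b and 8 and 0 reads in every other library, while Csn1s1 and Wap had 0 reads in all nodes. The part of mammary tissue in Glycam1 was not tested.

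Chst4, the sulphotransferase that adds sulphate to these sugars, had 0.257, 0, 4.22, 2.20, 2.0, 3.30 and 1.21 CPM in nodes 3, 4, 5, 6, 7a, 7b and 8. In HPN primaries 4 and 7 it had 0.0289 and 0.101 CPM, that is 1 and 4 reads, and in the other 5 it had none. Node 4, with 0 reads (3 reads there would be 0.0875 CPM), overlapped with the primaries, and the other nodes lay above all of them. The log2 difference was 6.22 (SE 1.40; edgeR adjusted p = 0.00655, and 0.0888 with the title number as a block, log2 6.35). The 7 HP primaries had 0 reads of Chst4 in all.

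Fut7, the fucosyltransferase that adds fucose to these sugars and is also made by white blood cells, had 0.844, 0.175, 4.66, 3.09, 2.56, 2.36 and 2.69 CPM in nodes 3, 4, 5, 6, 7a, 7b and 8. HPN primaries 1 to 7 had 0.698, 0.139, 0.138, 0.289, 0.213, 0.158 and 0.0506 CPM. Node 4 lay within the range of the primaries and the other nodes above it. The log2 difference was 3.23 (SE 0.80; edgeR adjusted p = 0.0109, and 0.0882 with the block).

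Madcam1, the adhesion molecule bound by the integrin of alpha 4 and beta 7 chains, had 0.477, 0.117, 4.0, 1.43, 4.42, 1.97 and 1.85 CPM in nodes 3, 4, 5, 6, 7a, 7b and 8. HPN primaries 1 to 7 had 0.0349, 0.209, 0.969, 0, 0.0388, 0.0788 and 0.0759 CPM. Primary 3 stood apart with 21 reads, above nodes 3 and 4. The log2 difference was 3.25 (SE 1.01; edgeR adjusted p = 0.0351). With the block the adjusted p was 0.117. The call was also lost without any 1 of nodes 5, 6, 7 and 8 or of HPN primaries 2, 4, 5, 6 and 7 (adjusted p from 0.0510 to 0.0811), and without HPN primary 3 the log2 difference was 4.64.

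**Figure D1:**
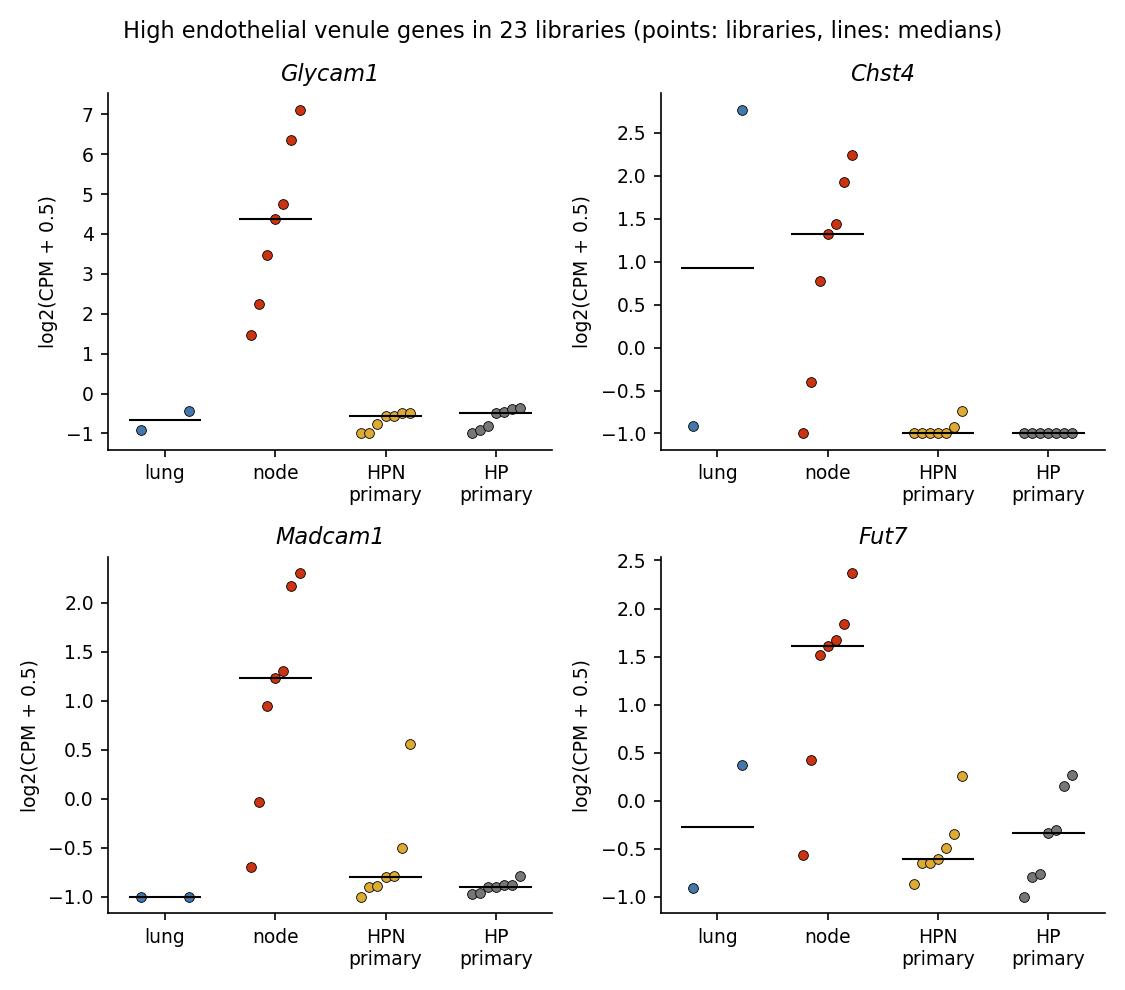
Levels of the 4 venule genes as log2(CPM + 0.5) in lung metastases, node metastases, HPN primaries and HP primaries; each point is a library and each line a group median. The 7 node libraries of Glycam1 lie above all others, and 1 lung library of Chst4, at 6.31 CPM, lies above every node.

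These are bulk samples, in which fewer cells of a type and less RNA per cell cannot be told apart. Genes of lymphocytes moved with the venule genes. The 8 B cell genes summed to between 199 and 1890 CPM in nodes, against 0.723 to 10.1 CPM in HPN primaries, and the 8 T cell genes to between 100 and 655 CPM, against 4.35 to 30.9 CPM. All 8 of each list rose and none was at 0 in either group. Some, such as Ms4a1 (0.312 CPM in HPN primaries) and Pax5 (0.22 CPM there), were so low in primaries that they could hardly have fallen. Genes of the reticular stroma of lymph nodes moved too, with sums over 6 genes of 189 to 714 CPM in nodes, against 64.0 to 143 CPM in HPN primaries, and no overlap. HP primaries, at 35.3 to 501 CPM, and lungs, at 147 to 357 CPM, did overlap with the nodes. Enpp2, which is also on the venule list below, alone averaged 240 CPM in nodes and 245 CPM in lungs. Of the 5 of them tested 3 rose, Enpp2, Tnfsf11 and Cxcl13, the chemokine that draws B cells to follicles, which averaged 99.8 CPM in nodes and 0.676 CPM in HPN primaries (log2 7.17, SE 0.92, edgeR adjusted p = 0.000204). The 10 general blood endothelial genes had sums of 337 to 861 CPM in nodes and 216 to 449 CPM in HPN primaries, and 2 of the 10 rose. The 7 melanocyte genes summed to between 4510 and 43400 CPM in nodes, against 6200 to 61500 CPM in HPN primaries, and 0 of 7 were called. The part of lymphocyte, stromal and tumour content in the venule genes' differences was not tested.

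Among the node libraries the genes differed in spread. Glycam1 spanned a 61.5-fold range from node 4 to node 5, Madcam1 37.9-fold and Fut7 26.6-fold. In node 4, Madcam1 and Fut7 rest on 4 and 6 reads, so counting error alone makes their ranges uncertain. Of the lymphatic genes, Ackr4 spanned 12.0-fold, Stab2 11-fold, Lyve1 3.55-fold, Pdpn 2.96-fold, Flt4 2.88-fold and Prox1 1.76-fold. The difference in spread was not tested. Node 4, lowest for all 4 venule genes, also had the lowest B cell sum (199 CPM), the lowest T cell sum (100 CPM) and the highest melanocyte sum (43400 CPM). Node 5, highest for Glycam1, Chst4 and Fut7, had the highest B cell sum (1890 CPM) and the lowest melanocyte sum (4510 CPM). Of all 23 libraries it also had the fewest reads assigned to genes (18.9 times 1e6) and the largest share of entries that name no gene (75.0%). The part of library quality in its values was not tested.

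Lymphocyte genes and Glycam1 were not in a fixed proportion. Per 100 CPM of the B cell sum, Glycam1 came to 1.04, 1.13, 7.29, 6.08, 2.31, 2.27 and 0.796 CPM in nodes 3, 4, 5, 6, 7a, 7b and 8. Node 8 had the same B cell sum as node 6 (1330 CPM) but 10.6 CPM of Glycam1, against 80.9 CPM in node 6. The venule genes were not in a fixed proportion among themselves either. For every 100 reads of Madcam1 there were 573 reads of Glycam1 in node 8, 601 in node 7a, 3450 in node 5 and 5670 in node 6. Chst4 ranged from 2.72 reads per 100 reads of Glycam1 in node 6 to 16.2 in node 7b, and was at 0 in node 4. Nodes 7a and 7b, which share a number, had 26.6 and 20.3 CPM of Glycam1, 4.42 and 1.97 CPM of Madcam1 and 133 and 164 CPM of Lyve1. Node sites were not tested against each other. The 3 brachial nodes ran from 2.25 to 10.6 CPM of Glycam1, below the 20.3 CPM of the inguinal node and the 26.6 and 80.9 CPM of the cervical nodes. Brachial nodes 3 and 4 also had the highest melanocyte sums (30400 and 43400 CPM) and the lowest B cell sums (411 and 199 CPM). Brachial node 8, at 13500 and 1330 CPM, did not. The part of tissue content in these site values was not tested.

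**Figure D2:**
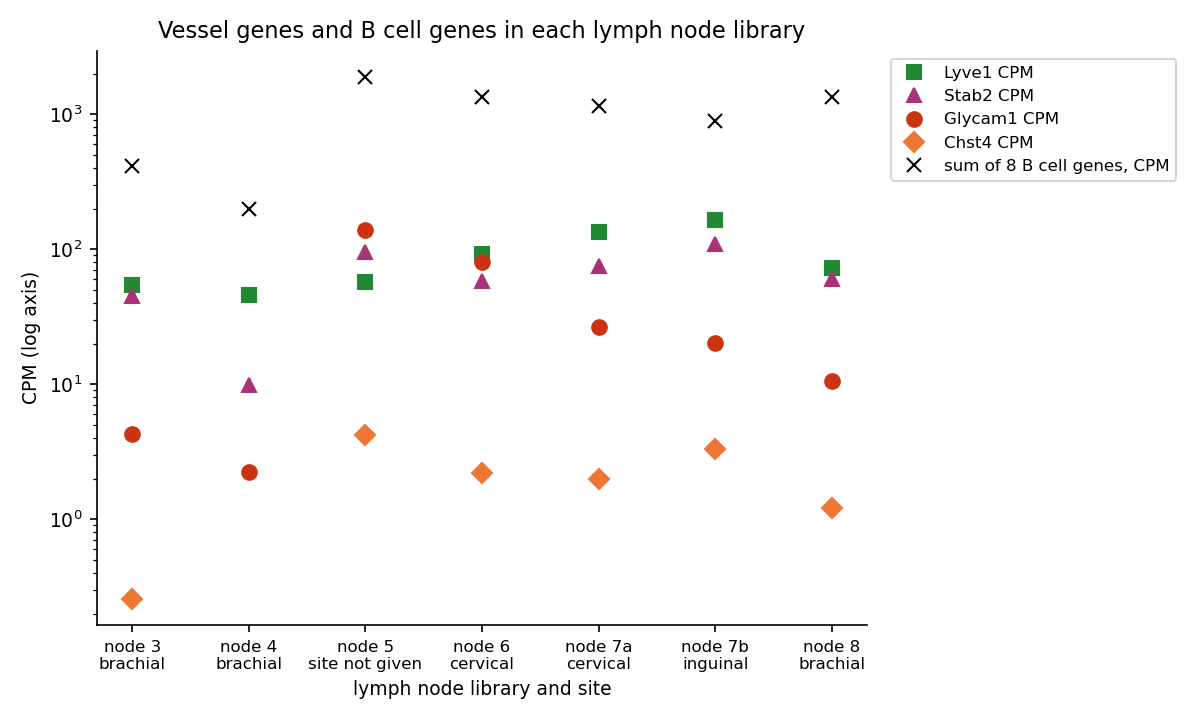
CPM on a log axis of Lyve1, Stab2, Glycam1 and Chst4 and of the summed 8 B cell genes in each node library, with the site under its name; Chst4 in node 4 is 0 and not drawn. Glycam1 runs from 2.25 CPM in node 4 to 138 CPM in node 5, while Lyve1 stays between 46.1 and 164 CPM.

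Stab2, a scavenger receptor for hyaluronan on sinus endothelium, changed most among the lymphatic genes. It had 44.8, 9.86, 95.6, 57.8, 75.0, 109 and 59.7 CPM in nodes 3, 4, 5, 6, 7a, 7b and 8. HPN primaries 1 to 7 had 2.16, 1.04, 1.75, 0.926, 3.10, 3.34 and 0.759 CPM. Node 4 was far below the other nodes and still above all primaries. Stab2 averaged 60.0 ± 31.8 CPM in nodes (SD, n = 6) and 1.87 ± 1.05 CPM in HPN primaries (n = 7), a log2 difference of 4.99 (SE 0.52; edgeR adjusted p = 5.82e-05). Glycam1 and Stab2 were the only 2 of the 10 genes still called with the title number as a block, at log2 7.28 (adjusted p = 0.0120) and log2 4.81 (adjusted p = 0.0104).

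Prox1, the transcription factor that sets lymphatic identity, had 23.7, 28.0, 41.7, 29.4, 29.3, 34.1 and 35.9 CPM in nodes 3, 4, 5, 6, 7a, 7b and 8. HPN primaries 1 to 7 had 6.66, 11.9, 12.0, 27.3, 10.3, 24.0 and 7.84 CPM. The groups overlapped through primaries 4 and 6, and the nodes were otherwise higher. The log2 difference was 1.13 (SE 0.31; edgeR adjusted p = 0.0180, and 0.122 with the block). It was higher in the node in 5 of 5 numbers with both samples, by a log2 difference of 0.03 in number 4.

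Lyve1, the hyaluronan receptor of lymphatic endothelium and of some macrophages, did not pass. It averaged 78.5 ± 38.2 CPM in nodes, from 46.1 in node 4 to 164 in node 7b, and 32.6 ± 28.7 CPM in HPN primaries, from 7.85 in primary 1 to 74.9 in primary 4 (log2 1.26, SE 0.70, edgeR adjusted p = 0.20). Flt4, the receptor for the lymphatic growth factor VEGF-C, averaged 57.9 ± 18.9 CPM in nodes and 42.5 ± 30.2 CPM in HPN primaries (log2 0.43, SE 0.47, edgeR adjusted p = 0.520). Pdpn, a membrane mucin of lymphatic endothelium, reticular cells and basal keratinocytes, was the sole member with a negative difference, at 15.4 ± 6.34 CPM in nodes and 35.6 ± 28.5 CPM in HPN primaries (log2 -1.23, SE 0.62, edgeR adjusted p = 0.158). Ackr4, which scavenges the chemokines CCL19 and CCL21, averaged 4.0 ± 3.11 CPM in nodes and 2.87 ± 5.22 CPM in HPN primaries (log2 0.44, SE 1.15, edgeR adjusted p = 0.805). The groups overlapped for each of these 4 genes. Ackr4 shares 8.9% of its exonic bases with Acad11 on the opposite strand, and Prox1 and Stab2 1.6% each with Prox1os and Gm16268, so reads of these partners may enter where strand was not used. Nodes 7a and 7b were highest for Lyve1, and node 7a, at 14.3 CPM, for Ackr4. Macrophage genes, 8 in number, summed to between 259 and 920 CPM in nodes, against 55.2 to 577 CPM in HPN primaries, and 2 of 8 rose; their part in Lyve1 was not tested.

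**Figure D3:**
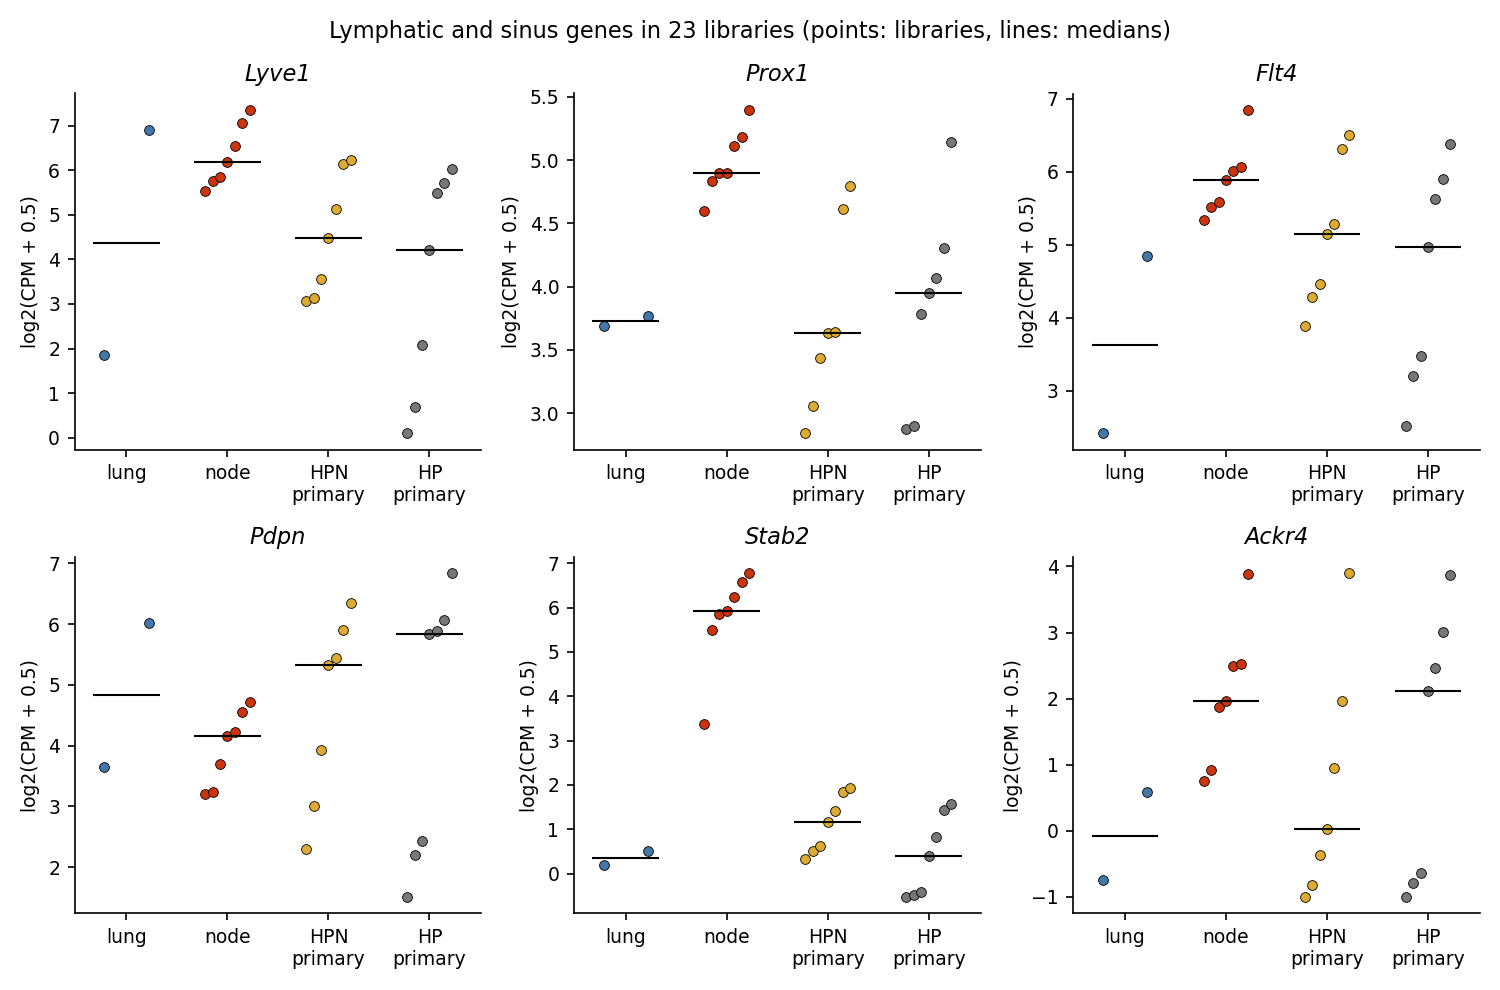
Levels of the 6 lymphatic and sinus genes as log2(CPM + 0.5) in lung metastases, node metastases, HPN primaries and HP primaries; each point is a library and each line a group median. Node libraries of Stab2, from 9.86 to 109 CPM, lie above all others, while the groups overlap for Lyve1, Flt4, Pdpn and Ackr4.

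The proportions of lymphatic genes to one another also differed by site. For every 100 reads of Lyve1, Stab2 had 82.9, 21.4, 167, 62.4, 56.4, 66.5 and 82.3 reads in nodes 3, 4, 5, 6, 7a, 7b and 8. In HPN primaries 1 to 7 it had 27.6, 9.26, 8.05, 1.24, 37.7, 4.79 and 2.19 reads. Node 4 lay within the range of the primaries, and all other nodes above it. Lyve1 had 114 to 200 reads per 100 reads of Flt4 in nodes and 43.2 to 89.7 in HPN primaries, with no overlap. Pdpn had 13.7 to 27.0 reads per 100 reads of Lyve1 in nodes and 39.2 to 504 in HPN primaries, again with no overlap. These ratios were chosen after their values were seen and carry no test.

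**Figure D4:**
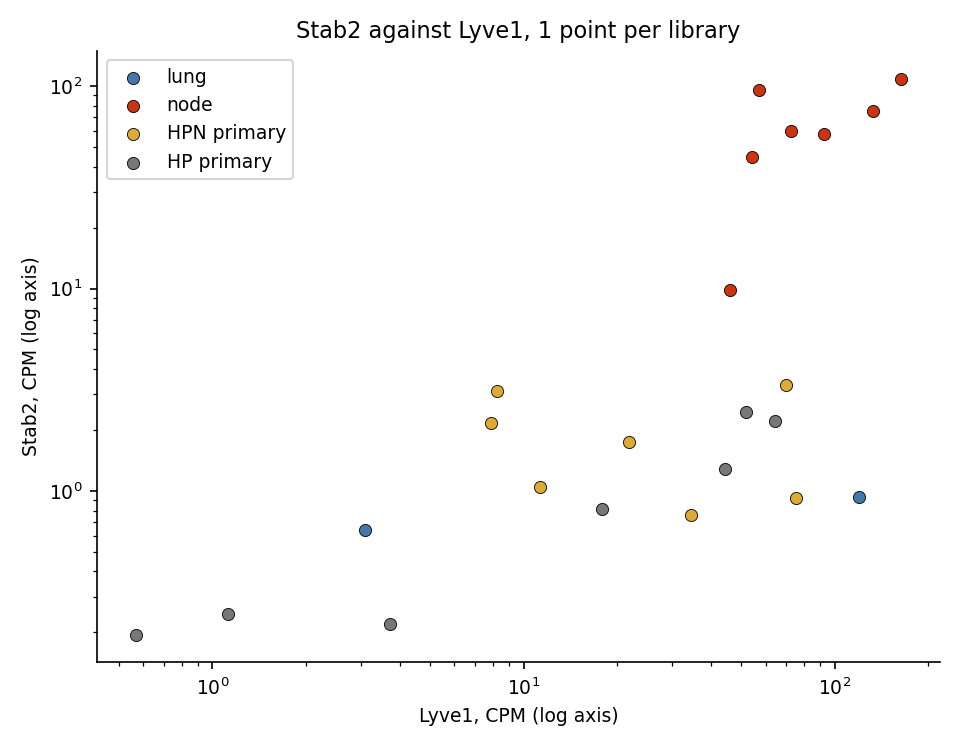
Stab2 against Lyve1 in CPM, both on log axes, with 1 point per library and colour for lung, node, HPN primary and HP primary. Nodes sit at the top with 9.86 to 109 CPM of Stab2, while lung 4 has 120 CPM of Lyve1 with 0.931 CPM of Stab2.

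Per kilobase of exon, Lyve1 and Glycam1 had the highest mean levels in nodes, at 26.9 ± 13.1 and 20.3 ± 25.7 CPM per kilobase (SD, n = 6). Pdpn followed at 8.48 ± 3.49, Flt4 at 7.03 ± 2.30, Stab2 at 6.85 ± 3.63 and Prox1 at 3.78 ± 0.753 CPM per kilobase. Madcam1, Fut7, Chst4 and Ackr4 lay between 1.28 and 0.743 CPM per kilobase. Among neighbours in this order, the step from Prox1 to Madcam1 was the sole one larger than the SD of both genes. Across groups, the mean CPM was highest in nodes for 7 of the 10 genes, in lung for Chst4, and in HP primaries for Pdpn and Ackr4. For Glycam1, Lyve1, Flt4, Pdpn and Ackr4, no 2 neighbouring groups in that order differed by more than the larger SD. For Glycam1 the SD in nodes, 54.9 CPM, exceeded the mean of 43.2 CPM, though every node library lay above all other libraries.

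Other genes of the same vessels and of their signals were read from lists of 21 and 20 genes. Of the first list, on venules and lymphocyte entry, 6 of 18 tested rose in nodes and 1 fell, with a median log2 difference of 0.49, where 12.7% of all genes tested rose and 9.81% fell. Lta, 1 of those that rose, had 28 reads in all HPN primaries together and could hardly have fallen. The counts of this list are therefore not weighed against those shares. The 6 that rose include Ltb, Lta and Itgb7, known as lymphocyte genes. Ltb and Lta, the lymphotoxins that maintain high endothelial venules in mice, differed by log2 6.08 (79.0 CPM in nodes, 1.15 CPM in HPN primaries) and 5.44 (5.24 CPM in nodes, 0.117 CPM in HPN primaries). Itgb7, the partner of Madcam1 on lymphocytes, differed by 3.52, the fucosyltransferase Fut4 by 2.37 and Enpp2, the enzyme autotaxin, by 1.30. Ltbr, the lymphotoxin receptor, fell by 0.86 on the log2 scale (50.3 CPM in nodes, 90.5 CPM in HPN primaries, edgeR adjusted p = 0.0138). The node chemokine Ccl19, which has near-identical copies in the mouse genome and may have lost reads in counting, had 7 reads in all nodes together, and Nkx2-3, a transcription factor of Madcam1-bearing endothelium in mice, 1 read.

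Of the second list, on lymphatic vessels, 3 of 20 rose in nodes and 1 fell, with a median log2 difference of 0.74; these shares are near the 12.7% and 9.81% of all genes tested and are no result about the list. Cldn11, a tight junction claudin, averaged 3.10 CPM in nodes and 0.10 CPM in HPN primaries (log2 4.93, SE 0.66, edgeR adjusted p = 0.000261), with no overlap. It had at most 7 reads in any HPN primary and could hardly have fallen. Clec1b, the podoplanin receptor of platelets and myeloid cells, differed by log2 3.69 and Kdr, a receptor for VEGF, by log2 1.10. Sphk1, a kinase that makes sphingosine 1-phosphate, fell by 1.96 on the log2 scale (24.1 CPM in nodes, 93.3 CPM in HPN primaries). With the block, 6 of these 11 genes remained called, among them Ltb, Lta, Itgb7, Cldn11 and Sphk1.

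**Figure D5:**
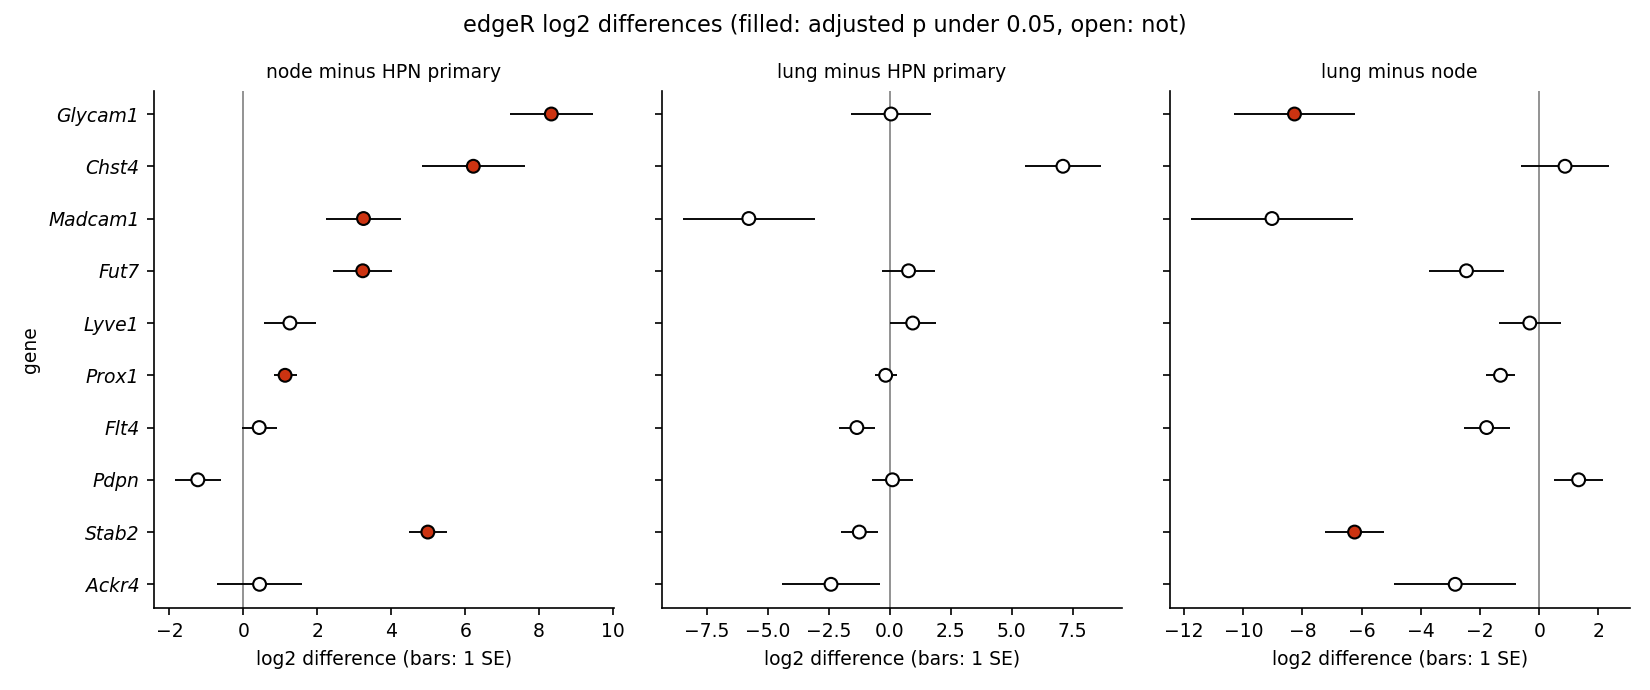
edgeR log2 differences of the 10 genes with bars of 1 SE for node minus HPN primary, lung minus HPN primary and lung minus node; filled points have an adjusted p under 0.05. In nodes 6 points are filled, all right of 0, while against HPN primaries lung has none.

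In lung metastases relative to HPN primaries, 0 of the 10 genes were called by edgeR, where 0.266% of the genes tested were called; 1 of the 10, Chst4, had an unadjusted p under 0.05, and DESeq2 called 1. Chst4 had 0.0322 and 6.31 CPM in lungs 3 and 4, from 1 and 183 reads, against 0 to 0.101 CPM in HPN primaries (log2 7.10, SE 1.56, edgeR adjusted p = 0.0874). Lung 4 was higher than any node and lung 3 was near the primaries. Leaving out either lung leaves 1 lung library, which is then assumed to vary like the other groups. On that assumption the log2 difference was 8.09 with lung 4 alone (adjusted p = 0.00916) and 0.59 with lung 3 alone (adjusted p = 0.985). The other venule genes in lung 4 were Glycam1 at 0.241 CPM, from 7 reads, Fut7 at 0.793 CPM, from 23 reads, and Madcam1 at 0 reads. For every 100 reads of Glycam1 there were 2610 reads of Chst4, against 2.72 to 16.2 in the 6 nodes where Chst4 was read. Lung 4 is the library with alveolar and cardiac genes, and the part of that tissue in its Chst4 reads was not tested. Lyve1 also differed between the lungs, at 3.09 and 120 CPM in lungs 3 and 4, as did Flt4, at 4.82 and 28.2 CPM, and Pdpn, at 12.0 and 64.2 CPM. Prox1 was close in both, at 13.1 and 12.4 CPM. For every 100 reads of Flt4, lung 4 had 426 reads of Lyve1 and lung 3 had 64.0.

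In lung relative to node metastases, Glycam1 and Stab2 fell, and 0 of the 10 genes rose, where 5.04% of the genes tested were called, 3.09% fell and 1.96% rose. Glycam1 passed the filter on low counts through the nodes, so it could hardly have risen. The same holds for Lta, described below, with 1 read in both lungs together. Glycam1 had 0.0322 and 0.241 CPM in lungs 3 and 4, against 2.25 to 138 CPM in nodes (log2 -8.27, SE 2.05, edgeR adjusted p = 0.0377). Stab2 had 0.643 and 0.931 CPM in lungs 3 and 4, against 9.86 to 109 CPM in nodes (log2 -6.24, SE 1.0, edgeR adjusted p = 0.0138). Madcam1 had 0 reads in both lungs, against 0.117 to 4.42 CPM in nodes, without passing (edgeR adjusted p = 0.0731). For 6 of the 10 genes both lungs lay below every node, as did 13.3% of the genes tested. With the block neither Glycam1 (log2 -5.77, adjusted p = 0.243) nor Stab2 (log2 -5.11, adjusted p = 0.215) was called. With the batch as a term Glycam1 missed the threshold (adjusted p = 0.0583), and among libraries outside the batch both did (adjusted p = 0.108 for Glycam1 and 0.0863 for Stab2). With 1 lung library, assumed to vary like the other groups, the log2 differences with lung 3 alone were -10.24 for Glycam1 (adjusted p = 0.160) and -6.54 for Stab2 (adjusted p = 0.103), and those with lung 4 alone -7.43 (adjusted p = 0.206) and -5.98 (adjusted p = 0.0433). Without any 1 of nodes 5, 6, 7 and 8, Glycam1 did not pass (adjusted p from 0.0542 to 0.0613). Lymphocyte genes moved with them, since all 8 B cell genes and 7 of 8 T cell genes fell, with B cell sums of 1.74 and 12.9 CPM in lungs 3 and 4. Of 5 reticular stroma genes tested 1 fell, Cxcl13. Of the other genes of these vessels, 5 of 38 tested fell, among them Ltb, Lta, Itgb7 and Cldn11, and Sphk1 rose, by 2.19 on the log2 scale. With the block 0 of these 6 were called, and without lung 4 or without node 8 0 of the 38 were. The comparisons of node and lung with HPN primaries share the primaries, and the 2 comparisons with nodes share the nodes.

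The comparison of genotypes asks what a mutant copy each of Nme1 and Nme2 does in primary melanomas. The 4 venule genes did not pass the filter on low counts, and of the 6 lymphatic genes 0 were called in HPN relative to HP primaries (edgeR; 0 of 6 at an unadjusted p under 0.05, and 0 by DESeq2), where 0% of 16578 genes were called. Log2 differences ran from -0.63 for Ackr4 (SE 1.46) to 0.74 for Stab2 (SE 0.63), with adjusted p from 0.951 to 0.976; an adjusted p of this size does not show that the genotypes are alike. Glycam1 had a median of 0.174 CPM in HPN primaries (0 to 0.213) and 0.211 CPM in HP primaries (0 to 0.285), and Fut7 0.158 CPM in HPN primaries (0.0506 to 0.698) and 0.293 CPM in HP primaries (0 to 0.706). Madcam1 had 0 to 0.969 CPM in HPN primaries (median 0.0759) and 0.0108 to 0.0780 CPM in HP primaries (median 0.0367). HPN primary 3 alone held 21 of the 36 Madcam1 reads of the HPN primaries. Chst4 had 5 reads in all HPN primaries and 0 in HP primaries. Without the filter all 10 genes could be fitted and 0 were called, with 2 at an unadjusted p under 0.05. These were Madcam1 (log2 2.28, unadjusted p = 0.0236, adjusted p = 0.859 by edgeR) and Chst4 (unadjusted p = 0.0287, adjusted p = 0.859 by edgeR). In 1 fit of all 4 groups the unadjusted p was 0.0223 for Madcam1 and 0.0920 for Chst4, and 0 of the 10 were called. No primary of either genotype had more than 57 reads of any venule gene. Lyve1 had 7.85 to 74.9 CPM in the HPN group (median 21.8), against 0.566 to 64.5 CPM in the HP group (median 17.9). Pdpn had 4.42 to 80.7 CPM in the HPN group (median 39.5), against 2.35 to 114 CPM in the HP group (median 56.9).

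That spread moved with genes of skin. HPN primaries 2, 5 and 7 and HP primaries 5, 7 and 9 had keratinocyte gene sums of 2.29 to 56.1 CPM, against 866 to 14600 CPM in the other 8. The same 6 libraries were the lowest 6 of 14 for Pdpn, at 2.35 to 14.8 CPM against 39.5 to 114 CPM, and for Ackr4, at 0 to 0.278 CPM against 0.525 to 14.4 CPM. Ackr4 is known from keratinocytes as well as lymphatic endothelium in mouse skin. Lyve1 and Flt4 overlapped between these libraries, at 0.566 to 34.6 CPM and 5.23 to 38.6 CPM in the 6 and at 7.85 to 74.9 CPM and 14.3 to 90.5 CPM in the other 8. Their medians were lower in the 6, at 5.96 against 48.1 CPM for Lyve1 and 14.8 against 54.2 CPM for Flt4. Prox1 and Stab2 overlapped too, with medians of 9.07 against 15.7 CPM and 0.502 against 1.96 CPM. In the node comparison the keratinocyte genes were also lower, with sums of 2.26 to 22.4 CPM in nodes and 2.29 to 6400 CPM in HPN primaries, and all 8 fell. The part of skin in the values of the 6 lymphatic genes was not tested.

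The genes most like Glycam1 and Lyve1 were sought among 13761 protein-coding genes with a mean of at least 1 CPM, by Pearson's r of log2(CPM + 0.5) over the 23 libraries. For Glycam1 they were Ffar1 (r = 0.972), Gimap7 (0.971), Slc16a5 (0.970), Fcrl5 (0.967) and Hsh2d (0.966), and Stab2 had r = 0.922. For Lyve1 they included Ackr2 (0.938), Sema3a (0.933), Flt4 (0.920) and C3 (0.909). Ackr2, a decoy receptor for inflammatory chemokines on lymphatic endothelium, averaged 12.9 ± 6.92 CPM in nodes and 6.51 ± 5.65 CPM in HPN primaries. The nodes stand apart from the other libraries for Glycam1, and r over all libraries includes that split. Over the 7 node libraries alone, Prkab1, Rpp40, Lrwd1, Efcc1 and Gpank1 came closest to Glycam1 (r from 0.959 to 0.972, the highest among 13756 genes over 7 points), whereas Chst4 and Fut7 each had r = 0.901, Madcam1 0.786, Stab2 0.717 and Lyve1 0.356. These libraries share their depth and tissue content, and the values are descriptions.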

How the data were processed

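Directional libraries were made from total RNA of the tumours, as the labels' protocols state. The authors used bcl2fastq 1.8.4 and STAR 2.5.3a with build mm9, per the submitters' processing notes. The deposited values are raw counts for each Ensembl identifier, 1 file a library. Not given in the sources used here are the strand setting and annotation of the counting step. Summary entries that name no gene (49.2 to 75.0% of entries per library) stayed out of library sizes and tests. Symbols were matched by identifier (87.45% matched) to GENCODE for GRCm38, used for names, exon lengths and overlaps.

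Gene counts of 18.9 to 89.5 times 1e6 per library limit low genes: 77 reads of Glycam1 in node 4 give 2.25 CPM with an exact 95% Poisson interval of 1.77 to 2.81, for counting error only. Tests used edgeR 4.0.16 (filterByExpr, TMM, robust quasi-likelihood) in R 4.3.3, fitted over all genes with Benjamini-Hochberg adjustment at 0.05, and were checked on simulated counts. The simulation had groups of the node and primary sizes, the same spread for every gene and changes in well-read genes only. It covers neither the lung tests nor genes of few reads. HPN primaries, nodes and lungs (15 samples) shared 1 fit; the 14 primaries had another. Standard errors come from the fit, and CPM values use TMM factors over 23 libraries. Other listed genes were named where called, at most 8 per list, smallest p first; Ccl19, Nkx2-3 and the ratios were chosen after their values were seen. Values of some genes that this rule names are not reported here. The members, lists and tests were chosen with earlier results of these data known.

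Alternatives were DESeq2 1.42.0, its size factors, other filters, the low-quality batch, 1 fit of 4 groups, 7a and 7b apart, each sample left out, and the title number as a block. Same-numbered HPN samples were read as 1 animal from the titles. Deviations of same-numbered node and primary samples from their group means correlated at 0.238, -0.054, -0.156, 0.375 and 0.083 in numbers 3 to 7, and those of lung and primary samples at 0.045 and 0.461 in numbers 3 and 4. No 2 libraries were identical.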

Additional observations from a re-analysis of the deposited data

Results flagged for a closer look

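Of 30 sets of group values examined, 1 per gene in each group of 4 to 10 samples, 3 had a sample far from the others. For normally distributed values chance alone gives such a gap in about 1 of 20 sets. Sets near 0 reads are not distributed so, and Chst4 in HP primaries, at 0 reads throughout, could not be flagged. The 3 of 30 are therefore not weighed against that rate. Chst4 had 0.101 CPM, from 4 reads, in HPN primary 7, where 5 of the 7 HPN primaries had 0 reads. Madcam1 had 0.969 CPM, from 21 reads, in HPN primary 3, against at most 0.209 CPM in the other HPN primaries. Stab2 had 9.86 CPM in node 4, against 44.8 to 109 CPM in the other node libraries. Node 4 was also the node with the lowest B cell sum, at 199 CPM, and the lowest blood endothelial sum, at 337 CPM.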

How the results depend on the processing

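The node differences of Glycam1 (7.51 to 8.57 with 1 sample left out) and Stab2 (4.82 to 5.22) kept their direction and passed under every alternative run. With the replicate block 2 of the 10 genes were called in nodes and 6 of the 38 other vessel genes; among libraries without low-quality reads the counts were 3 and 6. Leaving out 1 sample gave 5 to 6 and 10 to 11. Without nodes 3 and 4, an alternative chosen after seeing the data, they were 6 and 12. In lung relative to HPN primaries DESeq2 called 1 and 1, and leaving out 1 sample gave 0 to 1 and 0 to 4. In lung relative to node DESeq2 called 4 and 11, the block 0 and 0, the batch term 1 and 3, libraries without low-quality reads 0 and 0, and leaving out 1 sample 0 to 3 and 0 to 6. The cause of these changes was not tested. The block changed no call beyond these and those given with the results.

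Signs turned only for differences that had not passed. With 1 sample left out, the node difference ran from -0.05 to 1.99 for Ackr4. The lung differences from HPN primaries ran from -1.92 to 0.88 for Glycam1, -2.77 to 1.71 for Fut7, -3.40 to 1.90 for Lyve1, -0.29 to 0.08 for Prox1 and -1.57 to 0.86 for Pdpn, and those from nodes from -5.63 to 1.87 for Chst4, -4.67 to 0.64 for Lyve1 and -0.37 to 2.09 for Pdpn. Genotype differences ran from -0.10 to 0.63 for Lyve1, -0.43 to 0.11 for Prox1, -0.08 to 0.57 for Flt4, -0.69 to 0.08 for Pdpn and -2.27 to 0.04 for Ackr4. Among libraries without low-quality reads the node difference of Ackr4 was -0.29, the lung differences were -0.03 for Pdpn (from HPN primaries) and 0.02 for Lyve1 (from nodes), and the genotype differences -0.03 for Lyve1 and 0.26 for Prox1. The batch term gave -0.13 for Glycam1 in lung relative to HPN primaries. The block gave -0.16 for Lyve1 and -0.31 for Pdpn there, and 0.22 for Pdpn between genotypes, whose shared numbers are different animals; same-numbered primaries correlated at -0.071 to 0.654.

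With 2 lungs, unequal in lung tissue, no lung value can be read apart from that difference. Venule genes in primaries rest on 0 to 57 reads per library, which limits their comparison between genotypes.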
